A study of Mus musculus with 12 samples.

Results

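The 10 genes described here carry leptin and insulin signals inside the cell: the leptin receptor Lepr, the insulin receptor Insr, the adaptors Irs1 and Irs2, the kinase Jak2, the transcription factors Stat3, Foxo1 and Foxo3, and the inhibitors Socs3 and Ptpn1. They were chosen by name because db/db mice carry a mutant leptin receptor, and all 10 were found among the 21899 genes of the deposited table. The libraries were made from poly(A) RNA of mouse kidney, with 3 libraries in each of 4 groups. Diabetic db/db mice labelled as given GABP knockdown (db/db-GABP-KD) are set against db/db mice given vehicle (db/db-veh), and lean db/m mice labelled as given GABP overexpression (db/m-GABP-OE) against db/m mice given vehicle (db/m-veh). The series names db/db-veh as its diabetic nephropathy group and db/m-veh as its normal control group, and these too are compared. GABP is an ETS-family transcription factor with a DNA-binding subunit, Gabpa, and partner subunits Gabpb1 and Gabpb2. The labels do not say how GABP was raised or lowered, nor the age and sex of the mice. Kidneys of 6 mice per group were used and mixed 3 at a time. The labels do not say which mice went into which of the 3 libraries, so libraries of a group may share animals, and p-values measure the spread between these libraries.

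Leptin binds its receptor, which has no kinase of its own and works through the attached kinase JAK2. JAK2 phosphorylates STAT3, which then enters the nucleus and switches on genes that include Socs3, and SOCS3 in turn blocks the receptor complex. Insulin binds a receptor that is itself a kinase and acts through IRS1 and IRS2 on PI3-kinase and AKT, and AKT keeps the FOXO factors out of the nucleus. The phosphatase PTP1B, encoded by Ptpn1, removes phosphate from both JAK2 and the insulin receptor, so it restrains both pathways. In db/db mice the mutation changes the splicing of the long, signalling form of the leptin receptor. The deposited values are 1 per gene, so the long and short forms of Lepr cannot be told apart here.

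Promoters of 9 of the 10 genes could be read from RefSeq (GRCm38.p6), as windows of 250 bases before to 50 bases after the start site, with 2 windows for Lepr. The windows were searched for 3 short motifs on both strands. These were CCGGAAG, the core bound by ETS factors such as GABP, GTAAACA, the core bound by FOXO factors, and TTCNNNGAA, the palindrome bound by STAT factors. They are spelled with different letters and do not overlap one another in these windows. The ETS core was in 1 of the 9 genes, Ptpn1, where it lay 21 bases after the start site, and it was in 8.86% of all 32851 promoters of the table. The STAT palindrome was in 1 of the 9 genes, Socs3, at 154 bases before the start site, and in 8.30% of all promoters. The FOXO core was in none of the 9 and in 3.65% of all promoters. The 3 windows below are those of Lepr, the gene with the largest difference after GABP overexpression, of Socs3, the gene with the largest difference in the libraries labelled GABP knockdown, and of Ptpn1, the one window with an ETS core. Capitals mark a motif match, and the first Lepr window holds none.
Lepr, chr4:101717157-101717456, plus strand: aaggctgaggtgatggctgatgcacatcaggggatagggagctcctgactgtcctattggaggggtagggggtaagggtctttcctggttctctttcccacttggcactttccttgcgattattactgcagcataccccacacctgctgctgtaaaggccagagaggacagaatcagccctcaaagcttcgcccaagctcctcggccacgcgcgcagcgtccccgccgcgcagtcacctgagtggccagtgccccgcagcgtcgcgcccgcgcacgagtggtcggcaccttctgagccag
Socs3, chr11:117969317-117969616, minus strand: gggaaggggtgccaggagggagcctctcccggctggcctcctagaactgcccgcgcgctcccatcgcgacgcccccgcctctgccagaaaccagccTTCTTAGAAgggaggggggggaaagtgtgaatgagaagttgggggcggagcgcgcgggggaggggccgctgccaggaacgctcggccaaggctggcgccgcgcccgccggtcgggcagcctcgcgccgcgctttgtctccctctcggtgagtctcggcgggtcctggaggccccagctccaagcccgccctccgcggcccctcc
Ptpn1, chr2:167932077-167932376, plus strand: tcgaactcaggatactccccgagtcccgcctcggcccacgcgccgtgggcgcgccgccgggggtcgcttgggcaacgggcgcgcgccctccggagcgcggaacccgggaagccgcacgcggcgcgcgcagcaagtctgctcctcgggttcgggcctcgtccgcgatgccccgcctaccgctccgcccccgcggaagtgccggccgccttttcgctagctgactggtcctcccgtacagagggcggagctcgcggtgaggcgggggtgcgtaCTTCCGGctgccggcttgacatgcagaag
In Ptpn1 the ETS core is read on the strand opposite to the one printed.

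Values are FPKM as deposited, that is fragments scaled for gene length and for the total of the library, which held 6.78 to 9.70 M fragments. Genes encoded by mitochondrial DNA took 47.9% to 86.0% of the fragments, and the remaining genes share what is left. The median gene differed between groups, and the part of the mitochondrial share in this was not tested. On the log2(FPKM + 0.5) scale the median of all 12897 genes tested was 0.42 higher in db/db-GABP-KD than in db/db-veh, 0.38 higher in db/m-GABP-OE than in db/m-veh, and -0.24 in db/db-veh against db/m-veh. Changes are therefore also given relative to that median, or after a median of ratios scaling, which brings the 3 medians to 0.00, 0.04 and 0.01 in the same order. The targeted factor was checked first. Gabpa had 6.62, 2.66 and 3.40 FPKM in the libraries labelled GABP-KD, against 2.20, 2.17 and 1.63 FPKM in db/db-veh. It was thus higher in all 3 libraries labelled as knockdown, although the difference did not pass the test (limma log2 fold change 0.84, adjusted p = 0.34). Gabpa had 3.45, 3.35 and 3.71 FPKM in db/m-GABP-OE, against 1.79, 2.32 and 2.54 FPKM in db/m-veh (log2 fold change 0.57, adjusted p = 0.43). The median of all genes was itself 0.38 higher there. Of Gabpa, Gabpb1 and Gabpb2 none was called in either GABP comparison. After scaling the median of these 3 genes was 0.19 with overexpression, against 0.04 for all genes. With the labelled knockdown it was 0.18, against 0.00. All directions below for the GABP groups rest on the labels alone. Markers of the kidney were present in every library, with the proximal tubule transporter Slc34a1 at 133 to 698 FPKM.

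Of the 10 genes, 9 passed the filter on low values and were tested, and 1 difference in 1 comparison passed the test: Lepr rose with GABP overexpression. Lepr had 4.41, 4.12 and 5.76 FPKM in db/m-GABP-OE, against 0.92, 1.52 and 1.02 FPKM in db/m-veh, so the lowest overexpression library was well above the highest vehicle library. The means were 4.77 ± 0.88 FPKM and 1.15 ± 0.32 FPKM (SD, n = 3 each), resting on 912 and 199 fragments, a ratio of 4.14. The log2 fold change was 1.68 (SE 0.40, limma adjusted p = 0.039), and the exact permutation p was 0.1, the smallest that 3 against 3 libraries allow. Among all genes tested, 1.9% were called in this comparison, nearly all of them higher (1.85%). After median of ratios scaling the ratio of means was 2.96 and the groups still did not overlap, but the call was lost (log2 fold change 1.29, adjusted p = 0.48), with 0.209% of all genes called. It was also lost when any 1 of the 6 libraries of the comparison was left out (adjusted p 0.080 to 0.17), and without db/db-veh 1, which enters only through the shared estimate of spread (adjusted p = 0.059).

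Lepr was low and scattered in the other groups. The libraries labelled db/db-GABP-KD had 0.55, 1.34 and 2.76 FPKM and db/db-veh had 1.26, 2.03 and 0.61 FPKM, ranges that overlap fully. Neither the labelled knockdown (log2 fold change 0.12, adjusted p = 0.86) nor the db/db genotype against db/m (0.06, adjusted p = 0.98) gave a call. The direct test of the overexpression effect minus the knockdown effect gave 1.56 for Lepr (SE 0.56, unadjusted p = 0.013), which did not pass over all genes (adjusted p = 0.60), of which 0.132% did. In the order of group means, db/m-GABP-OE stood apart from its neighbour, and db/db-GABP-KD, db/db-veh and db/m-veh followed with overlapping ranges.

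**Figure D1:**
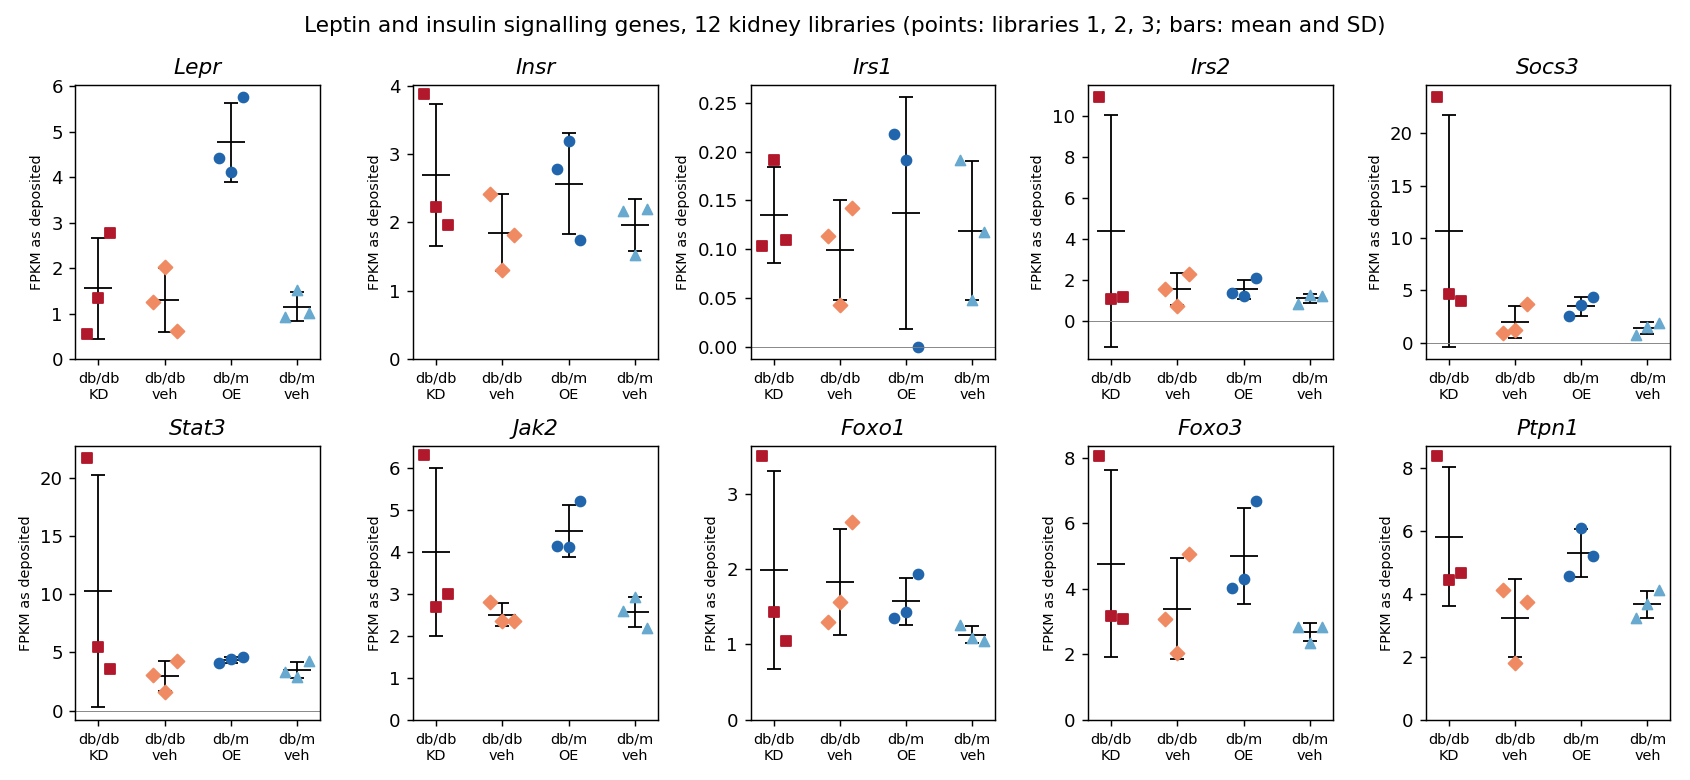
FPKM as deposited (linear axis) of each of the 10 genes in the 12 libraries, grouped from left as db/db-GABP-KD, db/db-veh, db/m-GABP-OE and db/m-veh. Points are libraries 1, 2 and 3 from left to right, and bars give the mean and SD. Lepr is at 4.12 to 5.76 FPKM in db/m-GABP-OE and at most 2.76 FPKM elsewhere, and library 1 of db/db-GABP-KD is far above all others for Irs2, Socs3 and Stat3.

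Markers of several other cell types were also higher with GABP overexpression. The 6 fibroblast and pericyte markers summed to 153 to 188 FPKM in db/m-GABP-OE, against 35.1 to 83.1 FPKM in db/m-veh, with a median log2 fold change of 1.81, against 0.38 for all genes. The 7 macrophage markers summed to 126 to 234 FPKM in db/m-GABP-OE, against 28.5 to 32.8 FPKM in db/m-veh (median 2.04). All 13 genes of these lists lay above the median gene. The 6 adipocyte markers summed to 18.2 to 30.4 FPKM in db/m-GABP-OE, against 4.16 to 11.7 FPKM in db/m-veh (median 1.15 over 4 tested genes). The thick ascending limb markers summed to 180 to 198 FPKM, against 88.8 to 110 FPKM (median 0.67), and the 8 T and B lymphocyte markers to 4.23 to 9.15 FPKM, against 1.93 to 2.76 FPKM (median 0.55 over 5 tested genes). Endothelial markers, at 137 to 215 FPKM in db/m-GABP-OE, against 78.4 to 101 FPKM in db/m-veh, had a median of 0.50, closer to that of all genes, and neutrophil markers overlapped, at 1.74 to 3.55 FPKM, against 1.46 to 4.86 FPKM. The markers called were Col3a1, C1qa, C1qc, Cfd and Cd4, and after median of ratios scaling Cd4 alone. Scaled sums still did not overlap for these lists other than the adipocyte and neutrophil ones. The remaining lists were not all higher. The median was 0.55 for distal convoluted tubule markers, but below the 0.38 of all genes for podocyte (0.20) and proximal tubule markers (0.05). It was negative for intercalated cell (-0.18), collecting duct principal cell (-0.19) and red blood cell markers (-1.04). Of the defining markers, the neutrophil gene S100a8 was at 0 throughout db/m-GABP-OE, the adipocyte gene Adipoq throughout db/m-veh, and Lep and the neutrophil gene Ly6g throughout both. In bulk tissue, more cells of a type and more RNA per cell cannot be told apart.

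Per 100 FPKM of the fibroblast and pericyte markers, Lepr was at 2.88, 2.37 and 3.06 FPKM in db/m-GABP-OE, against 1.92, 1.83 and 2.90 FPKM in db/m-veh. These ranges overlap, and the means were 2.77 and 2.22 (exact permutation p = 0.3). With 3 against 3 libraries this p cannot fall below 0.1, so the test cannot exclude a difference. The same ratio was 1.52, 1.47 and 2.75 in db/db-GABP-KD, against 2.11, 3.13 and 2.04 in db/db-veh. Across the 12 libraries the ratio spanned 1.47 to 3.13, and Lepr itself spanned 0.55 to 5.76 FPKM, a 10.4-fold range. Macrophage and other markers were also higher with overexpression, and no other marker list was set under Lepr in this way. This ratio was chosen after the values were seen, and the part of these cells in the Lepr result was not tested.

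**Figure D2:**
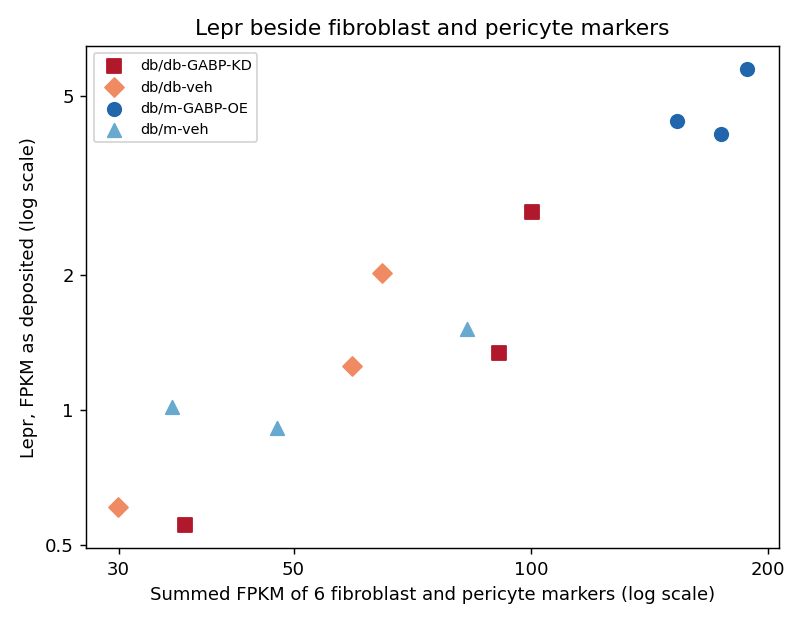
Lepr (FPKM as deposited, log axis) against the summed FPKM of 6 fibroblast and pericyte markers (log axis), 1 point per library, with shape and colour for the group. The 3 db/m-GABP-OE libraries lie at the top right (153 to 188 FPKM of markers), and the other 9 lie below and to the left of them.

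The genes most like Lepr across the 12 libraries, by Pearson r on log2 values after median of ratios scaling and among 9142 candidates, were Smoc2 (r = 0.96), Fbln1 (r = 0.95) and Nrep (r = 0.94). Smoc2 and Fbln1 encode secreted matrix proteins. Smoc2 had 11.7, 8.66 and 11.0 FPKM in db/m-GABP-OE, against 1.20, 3.27 and 0.82 FPKM in db/m-veh. Fbln1 had 9.35, 10.2 and 14.2 FPKM in db/m-GABP-OE, against 2.40, 4.91 and 0.98 FPKM in db/m-veh. Like Lepr, both were lowest among the db/db-GABP-KD libraries in library 1, at 0.27 and 1.08 FPKM. The libraries of a group share their treatment, so these correlations are descriptions.

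No difference in the insulin receptor gene Insr passed the test. It had 3.88, 2.22 and 1.97 FPKM in db/db-GABP-KD, against 2.42, 1.30 and 1.82 FPKM in db/db-veh, and 2.78, 3.19 and 1.74 FPKM in db/m-GABP-OE, against 2.17, 1.53 and 2.20 FPKM in db/m-veh. All 4 ranges overlap as deposited. Relative to the median gene, Insr changed by 0.00 with the labelled knockdown, by -0.08 with overexpression and by 0.15 in db/db-veh against db/m-veh, on the log2 scale. After scaling, the ratio of means in db/db-veh against db/m-veh was 1.20, without overlap of the groups (adjusted p = 0.76). The 95% interval of the deposited log2 fold change ran from -0.28 to 1.13 for the labelled knockdown and from -0.41 to 1.00 for overexpression. Differences within these intervals are not excluded.

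The 2 adaptors of the insulin receptor were very unlike in level. Irs1 was at 0 to 0.22 FPKM in all 12 libraries, on 0 to 18 fragments each, and was too low to test. In the 1 library with no Irs1 fragment, db/m-GABP-OE 3, a count of 0 allows up to 0.038 FPKM (3 fragments, counting error only). Irs2 averaged 2.13 FPKM over the 12 libraries, but this mean rests on 1 of them. It had 10.9, 1.07 and 1.17 FPKM in db/db-GABP-KD, against 1.56, 0.72 and 2.29 FPKM in db/db-veh, and 1.35, 1.19 and 2.06 FPKM in db/m-GABP-OE, against 0.83, 1.23 and 1.20 FPKM in db/m-veh. No Irs2 difference passed the test (adjusted p = 0.48, 0.75 and 0.90 for knockdown, overexpression and genotype). Relative to the median gene the labelled knockdown gave 0.28 with library 1 and -0.47 without it. Exons of Irs1 and Irs2 overlap exons of other genes on the opposite strand, as do those of Stat3 (with Stat5a) and Foxo1. No source used here gives the strand setting of the counting, so whether the overlaps raised or lowered these values is not known.

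Jak2, like Lepr, was higher in db/m-GABP-OE than in db/m-veh in the deposited values. It had 4.14, 4.12 and 5.21 FPKM in db/m-GABP-OE, against 2.59, 2.92 and 2.19 FPKM in db/m-veh, with no overlap between the groups. Its log2 fold change of 0.70 (SE 0.33, limma adjusted p = 0.34) did not pass, and it was 0.32 relative to the median gene, with overlapping groups after scaling. The ratio of Lepr to Jak2 within a library does not depend on scaling. It was 1.07, 1.00 and 1.11 in db/m-GABP-OE, against 0.35, 0.52 and 0.46 in db/m-veh, without overlap. In db/db-GABP-KD it was 0.09, 0.50 and 0.92, against 0.45, 0.86 and 0.26 in db/db-veh, with overlap. This ratio and the other ratios between the 10 genes were chosen after their values were seen. In db/db-GABP-KD Jak2 had 6.31, 2.69 and 3.00 FPKM, against 2.81, 2.35 and 2.36 FPKM in db/db-veh, and relative to the median gene this was 0.08. As deposited, db/db-GABP-KD 1 had the highest Jak2 and the lowest Lepr of the 12 libraries.

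Stat3 averaged 5.27 FPKM over the 12 libraries, and 3.78 FPKM without db/db-GABP-KD 1, where Ptpn1 was higher at 4.14 FPKM. Stat3 had 21.7, 5.44 and 3.60 FPKM in db/db-GABP-KD, against 3.05, 1.65 and 4.26 FPKM in db/db-veh. This gave a log2 fold change of 1.30 (SE 0.50, unadjusted p = 0.018), which did not pass over all genes (limma adjusted p = 0.34). The labelled knockdown library 1 carried most of it: relative to the median gene Stat3 was 0.88 higher with that library and 0.35 higher without it. In db/m-GABP-OE Stat3 had 4.09, 4.41 and 4.63 FPKM, against 3.29, 2.90 and 4.24 FPKM in db/m-veh, which is -0.07 relative to the median gene. Db/db-veh and db/m-veh differed by -0.01 on that scale.

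Socs3, the feedback inhibitor that STAT3 induces, spanned 0.76 to 23.4 FPKM over the 12 libraries, and 0.76 to 4.59 FPKM without db/db-GABP-KD 1. It had 23.4, 4.59 and 3.98 FPKM in db/db-GABP-KD, against 0.92, 1.21 and 3.69 FPKM in db/db-veh, so every library labelled knockdown was above every vehicle library. The means were 10.7 ± 11.1 FPKM and 1.94 ± 1.52 FPKM (SD, n = 3 each). The log2 fold change was 1.92 (SE 0.55, unadjusted p = 0.0029), larger than in 99.8% of genes, but it did not pass (limma adjusted p = 0.34). No gene at all was called in this comparison (0.0%, with 1839 genes at unadjusted p under 0.05 and 5 called after median of ratios scaling). Without library 1 Socs3 remained 0.92 higher relative to the median gene, against 1.49 with it, and after scaling the groups overlapped.

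Socs3 also had 2.49, 3.64 and 4.31 FPKM in db/m-GABP-OE, against 0.76, 1.47 and 1.85 FPKM in db/m-veh, again without overlap. The ratio of means was 2.56, and 1.88 after scaling, also without overlap, but the log2 fold change of 1.12 (SE 0.55, limma adjusted p = 0.35) did not pass. Set against Stat3 in the same library, Socs3 was 0.61, 0.82 and 0.93 of the Stat3 level in db/m-GABP-OE, against 0.23, 0.51 and 0.44 in db/m-veh (exact permutation p = 0.1). The same ratio was 1.08, 0.84 and 1.11 in db/db-GABP-KD, against 0.30, 0.74 and 0.87 in db/db-veh, where the groups overlap narrowly (exact permutation p = 0.2). Depth limits the low end: the 3 lowest Socs3 values rest on 18, 20 and 27 fragments, and 18 fragments have an exact 95% interval of 10.7 to 28.4.

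Ptpn1, the gene with the ETS core in its promoter window, differed little from the median gene with overexpression and more in the libraries labelled knockdown, without a call in either. It had 8.37, 4.42 and 4.65 FPKM in db/db-GABP-KD, against 4.10, 1.81 and 3.74 FPKM in db/db-veh. The groups did not overlap, and after scaling, at 4.90 to 5.10 against 3.43 to 4.67 FPKM, they still did not, but the ratio of scaled means was 1.19. On the log2 scale the difference was 0.77 (SE 0.36, limma adjusted p = 0.35) and 0.35 relative to the median gene. In db/m-GABP-OE Ptpn1 had 4.56, 6.09 and 5.20 FPKM, against 3.24, 3.66 and 4.10 FPKM in db/m-veh, a difference of 0.09 relative to the median gene, and the groups overlapped after scaling. The ratio of Socs3 to Ptpn1, the pathway's other inhibitor, was 0.55, 0.60 and 0.83 in db/m-GABP-OE, against 0.23, 0.40 and 0.45 in db/m-veh. In db/db-GABP-KD it was 2.80, 1.04 and 0.86, against 0.22, 0.67 and 0.99 in db/db-veh, with overlap (exact permutation p = 0.2).

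Foxo1, which switches on gluconeogenic and stress genes when insulin is low, was the one gene of the 10 whose diabetic and lean vehicle groups did not overlap in the deposited values. It had 1.29, 1.56 and 2.63 FPKM in db/db-veh, against 1.26, 1.08 and 1.05 FPKM in db/m-veh. The lowest db/db-veh library, at 1.29 FPKM, was close to the highest db/m-veh library, at 1.26 FPKM. Among all genes 1.46% were without overlap and higher in db/db-veh. After scaling, 3 of the 9 tested genes stood apart in that direction, Insr, Foxo1 and Foxo3, against 8.3% of all genes. For Foxo1 the scaled ratio of means was 2.13, from 1.41, 2.96 and 3.28 FPKM in db/db-veh, against 1.29, 1.32 and 0.97 FPKM in db/m-veh. The log2 fold change of 0.47 (SE 0.35, limma adjusted p = 0.65) did not pass, nor did the scaled one of 0.79 (SE 0.28, unadjusted p = 0.014, adjusted p = 0.27). Igfbp1, a FOXO target gene of the insulin response, had 1.74, 1.02 and 1.02 FPKM in db/db-veh, against 0.07, 0.38 and 0.21 FPKM in db/m-veh. Its log2 fold change was 1.28 (SE 0.53, limma adjusted p = 0.35), on 42 and 8 fragments. Within db/db-veh Igfbp1 was highest in library 1, where Foxo1 was lowest. It had the smallest unadjusted p of the 19 tested genes of the FOXO list. None of the 19 was called, and their median was 0.02, against -0.24 for all genes.

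With GABP overexpression Foxo1 had 1.35, 1.43 and 1.93 FPKM, against 1.26, 1.08 and 1.05 FPKM in db/m-veh, which is -0.04 relative to the median gene. In the libraries labelled knockdown it had 3.50, 1.43 and 1.05 FPKM, against 1.29, 1.56 and 2.63 FPKM in db/db-veh, or -0.41 relative to the median gene. Its relative Foxo3 had 4.01, 4.30 and 6.69 FPKM in db/m-GABP-OE, against 2.85, 2.35 and 2.83 FPKM in db/m-veh, with no overlap before or after scaling. This is a log2 fold change of 0.77 (SE 0.40, limma adjusted p = 0.38). Foxo3 had 8.05, 3.17 and 3.08 FPKM in db/db-GABP-KD, against 3.08, 2.02 and 5.06 FPKM in db/db-veh, which is -0.03 relative to the median gene. Foxo1 was 0.34, 0.33 and 0.29 of the Foxo3 level in db/m-GABP-OE, against 0.44, 0.46 and 0.37 in db/m-veh, without overlap (exact permutation p = 0.1). The same ratio was 0.43, 0.45 and 0.34 in db/db-GABP-KD, against 0.42, 0.77 and 0.52 in db/db-veh, with overlap (exact permutation p = 0.3).

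**Figure D3:**
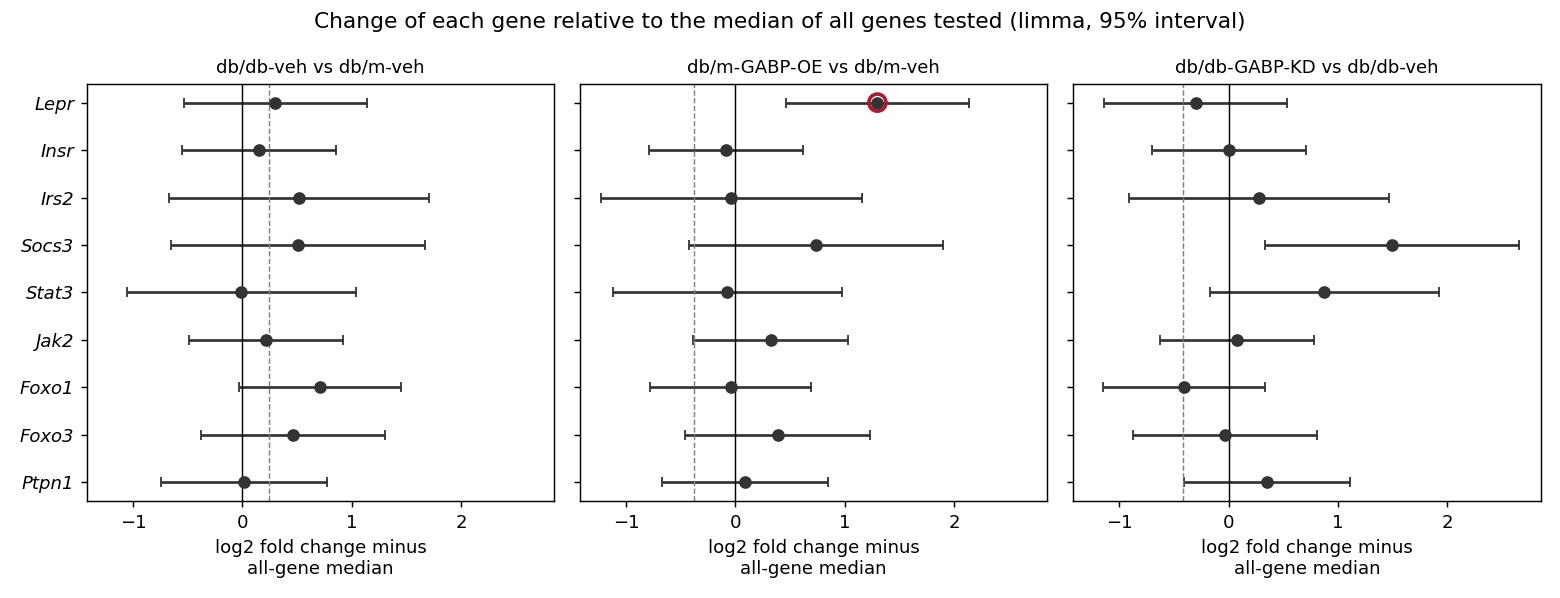
Log2 fold change of the 9 tested genes minus the median of all genes tested, in 3 comparisons, with 95% limma intervals (horizontal axis, log2 units). The solid line marks the median gene, the dashed line marks no change in FPKM as deposited, and the ring marks the 1 call, Lepr with GABP overexpression at 1.30. Socs3 (1.49) and Stat3 (0.88) lie highest in the comparison of db/db-GABP-KD with db/db-veh, without a call.

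Counted together, 6 of the 9 tested genes were without overlap and higher in db/m-GABP-OE than in db/m-veh: Lepr, Socs3, Jak2, Foxo1, Foxo3 and Ptpn1. Among all genes tested this share was 30.4%. After scaling 3 of the 9 remained, Lepr, Socs3 and Foxo3, and the share of all genes was 9.72%. The median log2 fold change of the 9 was 0.47, and that of all genes 0.38. With the labelled knockdown, 2 of the 9, Socs3 and Ptpn1, were without overlap and higher (all genes 17.3%), and after scaling 1 of the 9, Ptpn1 (all genes 4.63%). Their median log2 fold change was 0.50, and that of all genes 0.42. In db/db-veh against db/m-veh none of the 9 was called, where 0.093% of all genes were, and 8 of the 9 lay above the median gene. The comparisons share their vehicle libraries and so are not independent.

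One library stood apart from the others, for some of these genes and for many genes outside the 10. In db/db-GABP-KD 1 Socs3 was 9.41 times, Irs2 9.08 times and Stat3 5.30 times the median of the other 11 libraries. After scaling these ratios were 5.97, 4.99 and 3.63, larger than the same ratio in 99.5%, 99.0% and 98.4% of the genes tested. Lepr went the other way and was lowest of the 12 libraries, at 0.365 times the median of the others, or 0.18 times after scaling. After scaling, the other 6 genes of the 10 lay inside the range of the other 11 libraries. Among all genes tested, 16.5% were above and 22.4% below all other libraries in db/db-GABP-KD 1 on the same scale.

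The same library differed in its other RNA. It had the lowest share of mitochondrially encoded fragments, 47.9%, and the lowest mean correlation with its own group, 0.88. Of 15 tested STAT3 target genes, 10 were higher in it than in all other libraries after scaling (66.7%), against 16.5% of all genes. Without this library only 14 of the 15 passed the filter on low values. The FOXO list had 8 of 19 genes above all other libraries (42.1%) and 0 below. The PI3-kinase, AKT and mTOR list had 7 of 23 above (30.4%) and 5 below, and the insulin receptor list 0 of 13 above and 6 below. The leptin receptor signalling list had 2 of 13 above (15.4%) and 3 below (23.1%). The STAT3-coupled cytokine receptors had 1 of 9 above (11.1%) and 5 below (55.6%). Junb, an immediate early gene, had 125 FPKM in it, against 13.1 and 6.86 FPKM in the other libraries labelled knockdown, and the fibrinogen chain gene Fga had 33.3 FPKM, against 3.52 and 3.17 FPKM. Of the fibroblast and pericyte markers 5 of 6 were lower in it than in all other libraries, against 22.4% of all genes. So were 4 of 7 macrophage, 5 of 8 proximal tubule, 3 of 5 thick ascending limb and 3 of 5 distal convoluted tubule markers. The same held for 3 of 7 endothelial, 2 of 5 intercalated cell and 1 of 5 podocyte markers. No tested marker of the collecting duct principal cell, neutrophil, lymphocyte, adipocyte and red blood cell lists was below all others. S100a8 and S100a9, of 3 tested neutrophil genes, were above all others, as were Aqp2, Wt1 and Trpm6. The part of these differences in the Socs3, Irs2 and Stat3 values was not tested. Within db/db-veh, library 3 had the highest Socs3, Irs2, Stat3, Foxo1 and Foxo3 of its group, and 10.3 FPKM of Fga, against 0.83 and 0.95 FPKM in the other 2.

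**Figure D4:**
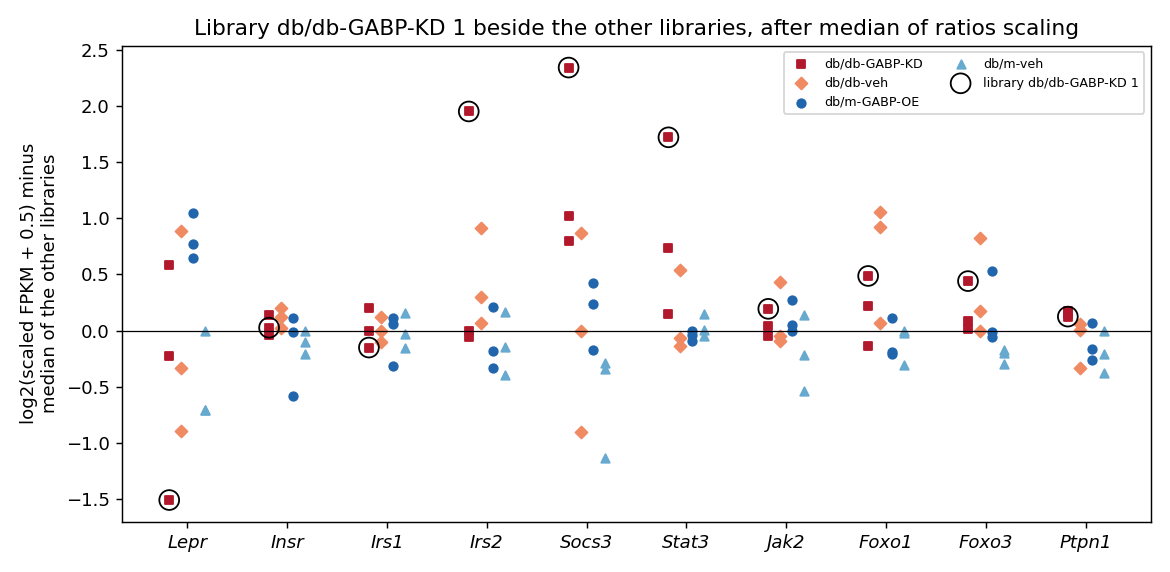
Level of each of the 10 genes in every library after median of ratios scaling, as log2(scaled FPKM + 0.5) minus the median of the 11 libraries other than db/db-GABP-KD 1 (vertical axis, log2 units). The ringed square is db/db-GABP-KD 1, which is above all others for Irs2, Socs3 and Stat3 and below all others for Lepr, and which lies among the others for the remaining 6 genes.

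The rest of the pathway was read from lists by role, with 13, 9, 15, 13, 23 and 19 tested genes. In any of the 3 comparisons 1 gene of them was called. Among all genes tested, 1.9% were called with overexpression, 0.093% in db/db-veh against db/m-veh and 0.0% with the labelled knockdown. This was Timp1, an inhibitor of matrix proteases on the STAT3 target list, which rose with GABP overexpression. It had 3.49, 5.34 and 2.88 FPKM in db/m-GABP-OE, against 0.49, 0.83 and 0.72 FPKM in db/m-veh, on 96 and 15 fragments. Its log2 fold change was 1.87 (SE 0.44, limma adjusted p = 0.038). The call was lost after scaling (1.50, adjusted p = 0.35). The adhesion molecule gene Icam1 (1.33, adjusted p = 0.051) and the NF-kB cofactor gene Bcl3 (1.38, adjusted p = 0.096) of the same list did not pass.

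In the libraries labelled GABP knockdown the 15 tested STAT3 targets had a median log2 fold change of 1.18 against db/db-veh, where all genes had 0.42. All 15 lay above the median gene, and 14 after scaling, with a scaled median of 0.75, but none was called. This rested on db/db-GABP-KD 1, which had the highest value of the 12 libraries for 10 of the 15 after scaling. Without it only 14 of the targets passed the filter on low values. Of these 14, 9 lay above the median gene, with a median of 0.27, against 0.22 for all genes. After scaling 8 of 14 did, with 0.06, against 0.02. The smallest unadjusted p belonged to Icam1, with a log2 fold change of 1.41 (adjusted p = 0.23). The STAT3-coupled cytokine receptors had their widest difference with overexpression, with a median of 0.81 over 9 genes against 0.38 for all genes. Among them Il10ra (1.32, adjusted p = 0.052) and the shared signal chain Il6st (1.07, adjusted p = 0.11) did not pass.

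The 13 tested genes of leptin receptor signalling had medians of 0.51 in both GABP comparisons, against 0.42 for all genes with knockdown and 0.38 with overexpression. Leptin itself, Lep, had no fragment in 11 of the 12 libraries and 11 fragments in db/db-veh 1. The adipocyte markers, Lep among them, summed to 30.03 FPKM in that library, against 5.90 and 7.11 FPKM in the other db/db-veh libraries. The suppressor Socs1 gave -0.71 in db/db-veh against db/m-veh (SE 0.23, adjusted p = 0.26). The insulin receptor list (13 tested genes), the PI3-kinase, AKT and mTOR list (23 genes) and the FOXO list (19 genes) had medians of 0.35, 0.49 and 0.46 with the labelled knockdown and 0.44, 0.41 and 0.40 with overexpression. Without db/db-GABP-KD 1 the knockdown medians were 0.35, 0.14 and -0.06, against 0.22 for all genes. Against the median gene of -0.24, their medians in db/db-veh against db/m-veh were -0.20, -0.16 and 0.02. The insulin receptor adaptor Sh2b2 (0.76, adjusted p = 0.073) and the FOXO target Bcl6 (1.53, adjusted p = 0.059) came closest to a call with overexpression.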

How the data were processed

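Poly(A) RNA of mouse kidney was sequenced from both ends with Illumina chemistry, per the labels' protocols. The authors deposited 1 FPKM value per gene and library. Per the submitters' processing notes, HTSeq and GRCm39 were used. No source used here gives the annotation or the strand setting. Exon lengths of GENCODE M21 (GRCm38) turned 97.98% to 98.2% of the deposited FPKM values of a library, and all 120 values of the 10 genes, into whole fragments (tolerance 0.05), which give the depths and counting intervals. Those intervals, exact at 95%, cover counting error only, since PCR copies cannot be told from separate molecules.

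Groups were compared with limma 3.58.1 (R 4.3.3) on log2(FPKM + 0.5), a scale that understates the change of low genes. A gene was tested where 3 or more libraries reached FPKM 0.3. All 12 libraries entered 1 fit with a variance trend and no block, and p was two-sided, adjusted over 12897 genes by Benjamini-Hochberg with a threshold of 0.05. Median of ratios scaling used genes above FPKM 1 in every library. Exact permutation tests, two-sided, compared group means. The fit was tested on simulated data. Libraries of a group differed by 7.48 times or more what counting alone gives (chi-square over its degrees of freedom), so none is a copy.

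The 10 genes and the lists were chosen with earlier results of these data known. The rule for naming genes took all 10, every called gene of a pathway list or its 3 smallest p, the 3 genes with the highest r to each, the GABP subunits and the cell type markers. Genes named beyond it for library db/db-GABP-KD 1, such as Junb and Fga, and the ratios within a library were chosen after their values were seen. Alternatives are listed in the closing section. Python 3.11.15 with scipy 1.17.1 was used for the remaining steps.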

Additional observations from a re-analysis of the deposited data

How the results depend on the processing

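The call of Lepr with GABP overexpression held in 11 of 29 alternatives (log2 fold change 1.24 to 2.07, adjusted p 0.000259 to 0.61), and its direction in all 29. No other of the 9 tested genes was called in any alternative, except Socs3 and Jak2 with library weights (3 genes called, adjusted p 0.044 and 0.013), and none was called in the other 2 comparisons or in the difference of the 2 GABP effects. The number of the 9 called with overexpression was 1 as reported and 0 with a pseudocount of 0.1, no filter, median of ratios, mitochondrially encoded genes left out, quantile normalization, no variance trend, voom with either library size, median of ratios with replicate block, and median of ratios without db/db-GABP-KD replicate 1 or db/db-veh replicate 2, and 0 to 1 when each library was left out. The replicate block without scaling kept the Lepr call (adjusted p = 0.039) and called 277 genes. Nothing in the labels says that a replicate number is shared across groups. Same-numbered deviations from the group means correlated by -0.48 to 0.38. With 3 libraries per group these values cannot settle whether the libraries are paired.

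All genes called with overexpression numbered 245, and 62 with a pseudocount of 0.1, 159 with a filter of FPKM 1, 27 with median of ratios, 23 without mitochondrially encoded genes, 33 with quantile normalization, 123 without the trend, 2757 with library weights, 17 with median of ratios and the replicate block, 66 with voom, 7 with voom and median of ratios sizes, 77 and 23 with median of ratios without db/db-GABP-KD 1 and without db/db-veh 2, 604 in a 2-group fit, and 31 to 559 when each library was left out. That range ran from 31 without db/m-GABP-OE 2 to 559 without db/db-GABP-KD 1, with 159 and 43 without db/m-GABP-OE 1 and 3, and 78 and 39 without db/m-veh 2 and 3. In the comparison of db/db-veh with db/m-veh, 12 genes were called, and 2 with no filter, 22 with median of ratios, 25 without mitochondrially encoded genes, 26 with quantile normalization, 642 with library weights, 5 with voom, 3 with voom and scaled sizes, 54 and 5 with median of ratios without db/db-GABP-KD 1 and without db/db-veh 2, 41 in a 2-group fit, and 2 (without db/db-veh 1) to 48 (without db/db-GABP-KD 1) when each library was left out, with 3 without db/db-veh 2, and 3, 22 and 4 without db/m-veh 1, 2 and 3. With the labelled knockdown 0 genes were called, and 1 with no filter, 5 with median of ratios, 6 without mitochondrially encoded genes, 11 with quantile normalization, 158 with library weights, 4 with median of ratios and the replicate block, 5 with voom and scaled sizes, 9 and 4 with median of ratios without db/db-GABP-KD 1 and without db/db-veh 2, and 0 to 4 (without db/db-GABP-KD 1) when each library was left out, with 1 without db/db-veh 3. The cause of these differences was not tested.

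Without db/db-GABP-KD 1 the Socs3 difference from db/db-veh, relative to the median gene, was 0.92, Stat3 0.35 and Irs2 -0.47. In the same comparison 15 of 15 tested STAT3 target genes lay above the median gene. Without that library only 14 passed the filter on low values, and 9 of 14 lay above it, or 8 of 14 after scaling. This setting was chosen after the values were seen. Depth limits Irs1, at 0 to 18 fragments, and the lowest Socs3 values, at 18 to 27 fragments.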

Other observations

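For 7 of the 10 genes the most similar genes over the 12 libraries are given here with and without db/db-GABP-KD 1. On log2 values after median of ratios scaling, the genes most like Irs2 were Ypel5 (Pearson r = 0.97 with 12 libraries, 0.90 without db/db-GABP-KD 1), Tmcc3 (0.97 and 0.88) and Xrn2 (0.96 and 0.86). Those most like Stat3 were Ifrd1 (0.94 and 0.76), Map3k2 (0.94 and 0.73) and Pi4k2b (0.94 and 0.75). Those most like Socs3 were Maff (0.94 and 0.89), Sec63 (0.93 and 0.87) and Carhsp1 (0.90 and 0.85). For Insr the leading genes were Tars2 (0.93 and 0.96) and Ddx20 (0.90 and 0.95), and for Jak2 Lox (0.86 and 0.88), which encodes a collagen cross-linking enzyme. Foxo1 was nearest to Usp32 (0.89 and 0.90) and Foxo3 to Crtc3 (0.87 and 0.91). Foxo1 also had Dusp1 among its 3 nearest genes (0.85 and 0.85), and Foxo3 had Cebpd (0.87 and 0.87), which is on the STAT3 target list. These are descriptions over libraries that share treatments, chosen from 9142 candidates for each gene.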
